A study of Mus musculus with 6 samples.

Results

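The m5C methyltransferases of the mouse, the NSUN proteins and Trdmt1, were followed in RNA bisulfite sequencing (RNA BS-seq) of depolarized cortical neurons, both as transcripts that could carry m5C and as transcripts whose abundance could change. The members were 7 genes chosen by name, Nop2, Nsun2, Nsun3, Nsun4, Nsun5, Nsun6, and Trdmt1, among 15994 genes with a listed cytosine. Every position with a reference cytosine, called as methylated, and annotated to one of these genes was kept, which gave 1288 positions out of 5240657. As this choice requires, the genome held a C at 1288 of these 1288 positions on the strand of the gene. The libraries listed 419 and 360 of them before KCl (replicates 1 and 2), 387 and 360 after 2 h, and 601 and 351 after 6 h.

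RNA came from C57BL/6 wild-type cortical neurons that were dissected at E16.5, with male and female embryos pooled, and kept in culture for 7 days. All groups, the 0 h group included, were silenced overnight from DIV6 with 1 μM TTX, which blocks sodium channels, and 100 μM DL-AP5, which blocks NMDA receptors. Depolarization with 55 mM KCl then lasted 0 h, 2 h, or 6 h, with 2 biological replicates per time point. In bisulfite-treated poly(A) RNA an unmethylated C is read as T and a methylated C stays C, and a position was listed only with at least 10 covering reads and at least 1 read with an unconverted C, called a methylated read below.

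Each library listed between 1559828 and 2374392 cytosines of all genes. At cytosines covered 5000 or more times with under 1% methylation, the share of unconverted reads lay between 0.0837% and 0.0869% in 5 libraries and was 0.115% in 6 h replicate 1, the library with the most positions. Fos, an immediate early gene that responds to depolarization, had a scaled coverage of 35.4 and 40.3 reads before KCl, 5800 and 5621 after 2 h, and 3327 and 2982 after 6 h. The 3 testable genes of 8 depolarization controls (Fos, Nr4a1, and Junb) rose at 2 h and at 6 h.

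m5C is written by enzymes that move a methyl group from S-adenosylmethionine to carbon 5 of cytosine through a covalent bond between a cysteine and the base. Most members act on structured RNAs. Nop2 and Nsun5 act on the RNA of the large cytosolic ribosomal subunit, Nsun4 on mitochondrial ribosomal RNA, and Nsun3 on mitochondrial tRNA for methionine, while Nsun2, Nsun6, and Trdmt1 act on cytosolic tRNAs. Nsun2 is also the best known writer of m5C in mRNA, Nsun6 methylates some mRNAs as well, and Nsun2 is required for normal brain development.

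The sequences below are the surroundings of the listed cytosines with the highest levels: for each gene the highest with at least 6 methylated reads in a library, the highest of those listed in at least 3 libraries with at least 500 reads in all, and the highest of those listed in all 6. They are shown because the levels by library described next are those of these cytosines. They are 21 nt of the genome (GRCm38), written 5′ to 3′ on the strand of the gene, and the capital marks the listed C. All 7 lie in coding sequence (GENCODE M21 transcripts).
Nsun2, chr13:69617456-69617476, + strand, exon 5: caacgtggagCcacaccataa
Nop2, chr6:125141103-125141123, + strand, exon 14: tgaacgctgcCtccaagaccg
Nsun6, chr2:15042260-15042280, - strand, exon 4: tgttcagcatCcagccctccc
Nop2, chr6:125144326-125144346, + strand, exon 16: ggctgctgtcCcaaagccgag
Nsun2, chr13:69618177-69618197, + strand, exon 6: tgtgccctttCcaggtaatca
Nsun5, chr5:135375376-135375396, + strand, exon 8: cttaggttccCctctctgcag
Nsun2, chr13:69633661-69633681, + strand, exon 19: ttcattatctCaggatgatgg

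No member transcript held a cytosine that reached 10% methylation with 6 or more methylated reads in any library. The count was 0 of 1288, and it remained 0 at a level of 5% and with reads summed over the libraries. The background was 0.227% of all listed positions (11902 of 5240657) and 0.119% of nuclear positions with 1 gene (5931 of 4996971). Of the 15977 nuclear genes, 2681 had such a position and no member did. No member position therefore entered the test of levels between time points, which was kept to positions that reach these minimums.

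The highest level at a position with at least 6 methylated reads was that of Nsun2 exon 5 shown above. It had 7 methylated reads of 263 (2.66%) in 0 h replicate 2 and 6 of 375 (1.60%) in 2 h replicate 2, and was not listed in the other 4 libraries. In the libraries that listed it, 13 of 638 reads were methylated, or 2.04% (exact 95% interval 1.09 to 3.46, counting error only). A summed level of this kind leaves out the reads of libraries where the position had no methylated read, so it lies above the level over all libraries unless all 6 listed it. It was thus seen in one replicate at 0 h and one at 2 h, and in neither at 6 h.

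The other printed cytosines were listed at lower levels. Nop2 exon 14 had 7 methylated reads of 493 in 2 h replicate 1 (1.42%) and was listed in that library alone. Nsun6 exon 4 had 2 of 209 and 1 of 121 reads at 0 h and 1 of 85 and 2 of 100 at 6 h, which summed over these 4 libraries to 6 of 515 (1.17%, interval 0.429 to 2.52). Both 0 h and both 6 h libraries thus listed it with 1 or 2 methylated reads, and no 2 h library did. In 0 h replicate 1 and 6 h replicate 1 it lay in an unbroken run of listed cytosines, as described below, and so did Nop2 exon 16 in 2 of its 3 libraries. Over the libraries that listed them, Nop2 exon 16 summed to 0.917%, Nsun2 exon 6 to 0.858%, and Nsun5 exon 8 to 0.550%.

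Only Nsun2 had cytosines listed in all 6 libraries, 18 of them, with summed levels between 0.0597% and 0.274%. The highest was that of exon 19, with 5 of 1969 and 1 of 1534 reads before KCl, 4 of 2214 and 1 of 1532 after 2 h, and 6 of 1765 and 13 of 1922 after 6 h. The levels were 0.254% and 0.065%, 0.181% and 0.065%, and 0.340% and 0.676%, so that both 6 h libraries lay above the other 4 (30 of 10936 reads in all, 0.274%, interval 0.185 to 0.391). No test was made of this order, which was noted after the values were seen.

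Of the 2478 listings of a member cytosine in a library, 48, at 38 positions, had at least 6 methylated reads. Of these, 43 were in Nsun2 and 5 in Nop2, the genes with the highest coverage. Another 13 listings reached a level of 10%, all with 4 or fewer methylated reads and a coverage of at most 23. The highest were an Nsun2 intronic cytosine (chr13:69618392, 3 of 10 reads, 30.0%, 6 h replicate 1) and an Nsun6 coding cytosine (chr2:15038127, 4 of 22 reads, 18.2%, 2 h replicate 1). Each was listed at this level in 1 library.

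**Figure D1:**
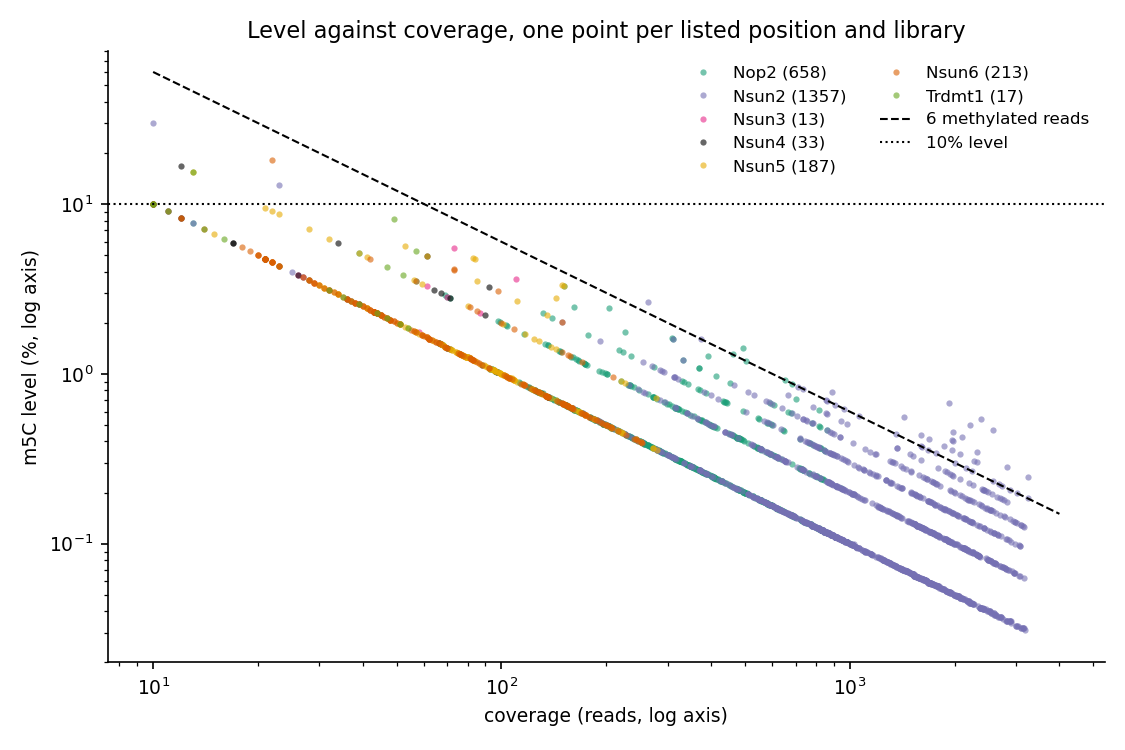
m5C level (%, log axis) against coverage (reads, log axis), with a point for each member cytosine and library. Points with a level of at least 10% sit at a coverage of at most 23 reads, and the highest level with at least 6 methylated reads was 2.66%.

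How many cytosines of an mRNA were listed differed widely between members. Of the cytosines of the protein-coding transcript that holds the most listed positions, 80.2% were listed in some library for Nsun2 (of 631), 58.8% for Nop2 (of 682), 24.5% for Nsun5 (of 646), and 24.2% for Nsun6 (of 631). The share was 5.40% for Nsun4, 2.24% for Trdmt1, and 1.55% for Nsun3. In Nsun2, an A followed 35.6% of listed and 34.7% of all cytosines, and a G followed 9.49% and 12.2%. In all, 641 of the 1288 positions were listed in 1 library.

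Part of the listed cytosines stood in unbroken runs. A run was defined as at least 10 neighbouring cytosines of the transcript that were all listed in 1 library. In 6 h replicate 1, Nsun6 had 3 runs with 68 of its 108 listed cytosines, and 67 of the 68 had a single methylated read. The longest held 37 cytosines over 127 nt of exons 3 and 4, and its cytosines were covered by 61 to 105 reads. In 0 h replicate 1, 2 runs held 50 of the 65 listed Nsun6 cytosines, again mostly (47) with 1 methylated read. The remaining 4 libraries had no run in Nsun6 and listed 15, 8, 13, and 4 of its cytosines.

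Nsun5 showed the same in 6 h replicate 1, where 2 runs held 85 of 100 listed cytosines, 83 of them with 1 methylated read. The longest covered 62 cytosines over 204 nt of exons 9 and 10. The other libraries listed 10 to 26 Nsun5 cytosines each and had no run. In Nop2 runs held 77 of 135 listed cytosines in 0 h replicate 2, 66 of 137 in 2 h replicate 1, and 66 of 161 in 6 h replicate 1. Nsun2 had runs in 4 libraries, with 49 to 115 cytosines each.

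The share of unconverted reads of a transcript was estimated over its cytosines with the coverage of the nearest listed neighbour (within 50 nt). The cytosines of a run count toward this share by construction, so it is given with and without their methylated reads. The value without them keeps all reads of the transcript in the denominator. It therefore lies below the share of the cytosines outside the runs. For Nsun6 this share was 1.26% in 6 h replicate 1 (exact 95% interval 1.04 to 1.51) and 0.154% in 6 h replicate 2 (0.0620 to 0.317). Without the methylated reads of the runs it was 0.458% in 6 h replicate 1. For Nsun5 it was 0.292% and 0.0591% in the same libraries, and 0.0540% without the methylated reads of the runs in replicate 1. In 0 h replicate 1, the Nsun6 share was 0.310% with its runs and 0.0819% without their methylated reads. Nsun6 in 6 h replicate 1 thus remained above replicate 2 without them. For Nsun5 in 6 h replicate 1 the value is a lower bound, so its distance from replicate 2 was not determined. The shares of Nsun2 stayed between 0.0610% and 0.0749% in the 6 libraries, and those of Nop2 between 0.0620% and 0.115%. The methods of the study describe the removal of reads with many unconverted cytosines, and whether that step came before these lists were written is not stated in the sources used here.

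**Figure D2:**
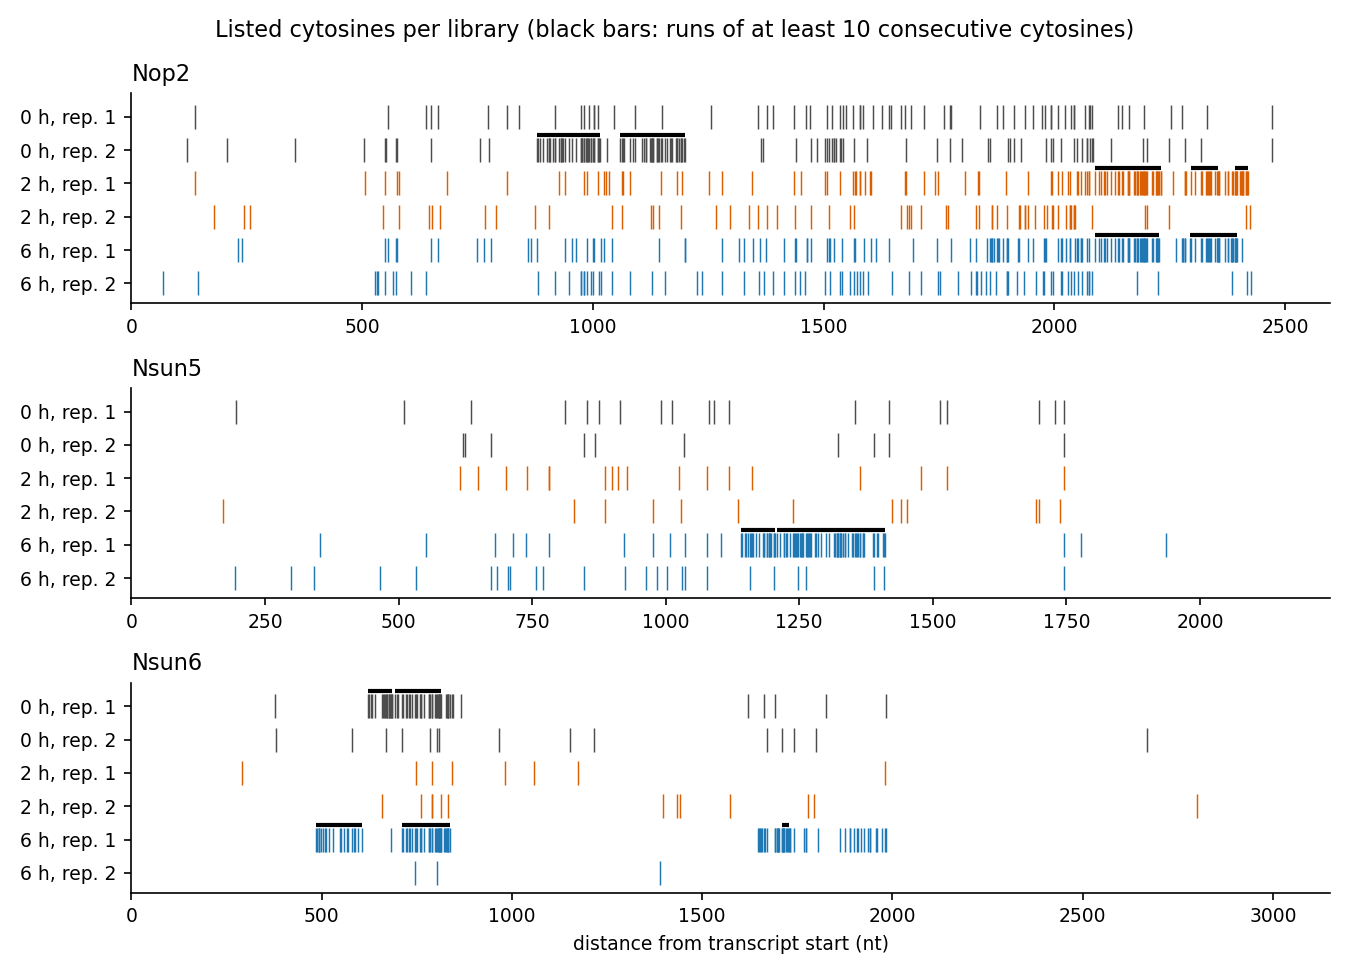
Cytosines listed in each library along 3 member mRNAs (distance from transcript start, nt), with black bars for runs of at least 10 neighbouring listed cytosines. Nop2, Nsun5, and Nsun6 are drawn; the runs of Nsun5 are in 6 h replicate 1, those of Nsun6 in 0 h replicate 1 and 6 h replicate 1.

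The coverage of the listed cytosines served as the measure of transcript abundance. Coverage was averaged in windows of 100 nt, over the windows listed in all 6 libraries, and divided by a library factor, so values are reads per cytosine position and do not scale with transcript length. Since a cytosine without an unconverted read is not listed, the better covered parts of a transcript are more likely to enter. Nop2 (15 windows), Nsun2 (32), and Nsun5 (3) had at least 3 such windows and were tested with limma among 7890 genes. Nsun6 (1 window) was tested in an additive fit of windows and libraries, chosen after the data were seen, which uses windows listed in at least 2 libraries (14 for Nsun6) and held 10921 genes. Nsun3, Nsun4, and Trdmt1 could not be tested. The 3 comparisons share libraries.

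At 0 h against 2 h, 1 of the 3 members tested changed (Nop2, lower), where 40.9% of all genes were called, 18.7% higher and 22.2% lower at 2 h. At 0 h against 6 h, Nop2 (not with total-coverage scaling) and Nsun5 were called higher, where 67.6% of all genes were called (33.4% higher and 34.2% lower). From 2 h to 6 h Nop2 and Nsun5 were called higher, against 65.2% of all genes (33.3% higher and 32.0% lower). Nsun6 was called lower at 6 h in the additive fit, both against 0 h, where that fit called 62.8% of its genes (31.1% higher and 31.7% lower), and against 2 h, where it called 61.5% (31.4% higher and 30.1% lower). Nsun6 was not called at 2 h against 0 h, with 37.7% of genes called (17.3% higher and 20.3% lower). When every listed position of a library was used in place of shared windows, all of these calls except that of Nop2 from 2 h to 6 h were lost (limma adjusted p from 0.0824 to 0.273). Of the called genes, 45.6% were higher at 2 h and 49.4% at 6 h, which became 18.1% and 26.1% when libraries were scaled by their total listed coverage, a scaling that moved the median log2 change of all genes from -0.01 to -0.17 and from 0.01 to -0.26.

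**Figure D3:**
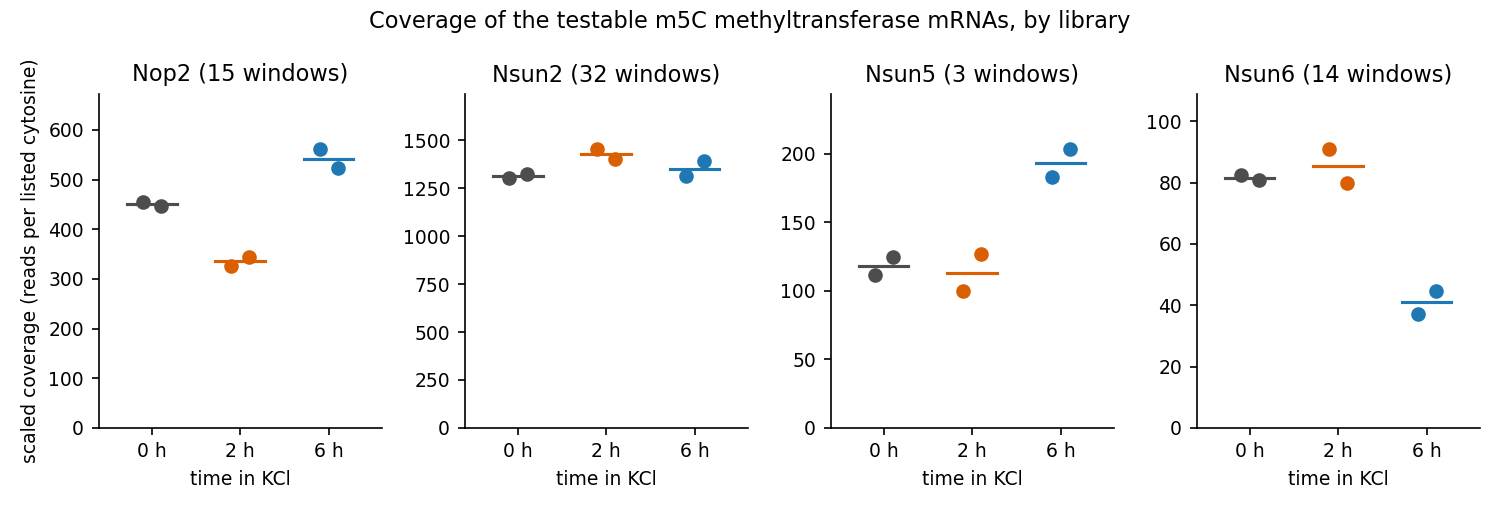
Scaled coverage (reads per listed cytosine) of Nop2, Nsun2, Nsun5, and Nsun6 by time in KCl, with a point per library and a bar for the mean of 2 replicates. The values of Nsun6 are from the additive fit and the others from windows listed in all 6 libraries. Nop2 is lowest at 2 h, Nsun5 is highest at 6 h, Nsun6 is lowest at 6 h, and the Nsun2 groups lie close together. The higher Nop2 level at 6 h than at 0 h is lost when libraries are scaled by total listed coverage.

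Nop2, a nucleolar protein needed to assemble the large ribosomal subunit, fell at 2 h and was above its starting level at 6 h, the latter not with total-coverage scaling. It lies at chr6:125131909-125144753 on the + strand, with 16 exons. Its scaled coverage was 454 and 447 reads before KCl, 327 and 343 after 2 h, and 561 and 523 after 6 h. The 2 h libraries were the lowest and the 6 h libraries the highest, and no groups overlapped.

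From 451 ± 4.84 reads at 0 h (SD, n = 2), the mean of Nop2 went to 335 ± 11.7 at 2 h and 542 ± 26.9 at 6 h. The level at 2 h was 1.35-fold lower than at 0 h (log2 change -0.43, SE 0.07, 95% interval -0.60 to -0.26, limma adjusted p = 0.00437), and with the median over windows the change was -0.39 (limma adjusted p = 0.0813). From 2 h to 6 h it rose 1.62-fold (log2 change 0.69, 0.52 to 0.87, adjusted p = 0.000285). Against 0 h the 6 h level was 20.2% higher (log2 change 0.27, 0.09 to 0.44, adjusted p = 0.0151), but total-coverage scaling took this difference to -0.0017 (adjusted p = 0.991), and the adjusted p was 0.0523 without 0 h replicate 1, 0.0694 without 0 h replicate 2, and 0.0986 without 6 h replicate 1. In these fits the remaining library of the group was assumed to vary like the other groups. Among all genes tested, 24.2% changed more than Nop2 at 2 h and 66.3% changed more at 6 h.

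The course of Nop2 was seen in most windows but not in every exon. Of 18 windows listed in all 4 libraries of 0 h and 2 h, 13 had both 2 h libraries below both 0 h libraries and 1 had them above. Of 17 windows listed in all 4 libraries of 2 h and 6 h, 17 had both 6 h libraries above both 2 h libraries. Exon 13 had a mean scaled coverage of 590 and 590 reads before KCl, 344 and 339 after 2 h, and 599 and 600 after 6 h. There the 6 h libraries were close to the 0 h libraries, and only the 2 h libraries stood apart. Of 11 exons listed in all 4 libraries of 0 h and 2 h, 7 had both 2 h libraries below both 0 h libraries and 0 had them above. Exon 15 had 329 and 286 reads before KCl, 323 and 326 after 2 h, and 446 and 460 after 6 h, so the 2 h libraries lay within the range of the 0 h libraries. In exon 8, 1 of the 2 h libraries (258 reads) lay within the range of the 0 h libraries (256 to 275).

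Nsun5, which methylates the RNA of the large ribosomal subunit, was higher at 6 h. It lies at chr5:135369953-135376805 on the + strand, with 10 exons. Its scaled coverage was 111 and 125 reads before KCl, 99.9 and 126 after 2 h, and 183 and 203 after 6 h. The 0 h and 2 h libraries overlapped, and both 6 h libraries lay above the other 4.

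Means of Nsun5 were 118 ± 9.50, 113 ± 18.7, and 193 ± 14.3 reads (SD, n = 2 each). The 6 h level was 1.63-fold that of 0 h (log2 change 0.71, 0.35 to 1.06, limma adjusted p = 0.00512) and 1.72-fold that of 2 h (0.78, 0.42 to 1.13, adjusted p = 0.00365). At 2 h against 0 h the difference was -0.07 (-0.42 to 0.28, adjusted p = 0.737), an interval that does not hold the changes seen at 6 h. With total-coverage scaling the change at 6 h against 0 h was 0.44 (adjusted p = 0.0326). Without 6 h replicate 1, the library with the runs, the change at 6 h was 0.78 (adjusted p = 0.0209), which rests on 1 library at 6 h with its spread taken from the other groups.

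Wider sets of Nsun5 windows, which include the windows tested above, showed the same direction. Its mean coverage was higher at 6 h in 10 of 10 windows listed at 0 h and 6 h and in 11 of 11 listed at 2 h and 6 h. Of the 4 windows listed in all libraries of 0 h and 6 h, 3 had both 6 h libraries above both 0 h libraries, and of the 4 listed in all libraries of 2 h and 6 h, 2 had both 6 h libraries above both 2 h libraries. In exon 7 the libraries had 132 and 147 reads before KCl, 129 and 126 after 2 h, and 237 and 228 after 6 h. In the additive fit, over 19 windows, the change at 6 h against 0 h was 0.78 (limma adjusted p = 0.00338).

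Nsun2, the tRNA and mRNA methyltransferase, had the highest coverage of the members and was not called by limma over its shared windows in any comparison. It lies at chr13:69533746-69635780 on the + strand, with 19 exons. Its scaled coverage was 1306 and 1326 reads before KCl, 1454 and 1402 after 2 h, and 1313 and 1391 after 6 h. The 2 h libraries lay above the other 4, and the 0 h and 6 h libraries overlapped.

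Nsun2 means were 1316 ± 14.3, 1428 ± 36.9, and 1352 ± 55.4 reads (SD, n = 2 each). The log2 difference was 0.12 at 2 h against 0 h (-0.02 to 0.25, limma adjusted p = 0.145), 0.04 at 6 h against 0 h (-0.10 to 0.17, adjusted p = 0.562), and -0.08 from 2 h to 6 h (-0.21 to 0.06, adjusted p = 0.258). Larger changes in either direction were seen in 70.1%, 94.8%, and 88.4% of the genes tested. The additive fit, over 40 windows, called Nsun2 higher at 2 h (0.23, adjusted p = 0.023), while total-coverage scaling gave -0.046. In 38 of 39 windows the mean was higher at 2 h than at 0 h, though in only 15 of 33 with 4 libraries were both 2 h libraries above both 0 h libraries. Exon 9, with the most coverage, had 2624 and 2646 reads before KCl, 2679 and 2716 after 2 h, and 2512 and 2531 after 6 h.

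Nsun6, which methylates tRNAs for cysteine and threonine, fell by 6 h. It lies at chr2:14995131-15055069 on the - strand, with 12 exons. In the additive fit its coverage per listed cytosine was 82.4 and 80.9 reads before KCl, 90.9 and 79.9 after 2 h, and 37.2 and 44.7 after 6 h. The 0 h and 2 h libraries overlapped, and both 6 h libraries lay below the other 4. These values rest on 64 and 12 cytosines before KCl, 5 and 9 after 2 h, and 97 and 3 after 6 h, so that 6 h replicate 2 had 3 cytosines in 3 windows.

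Nsun6 means were 81.6 ± 1.11, 85.4 ± 7.75, and 41.0 ± 5.32 reads (SD, n = 2 each). The 6 h level was 2.00-fold lower than at 0 h, and the log2 value fell by 1.00 (interval -1.34 to -0.66, limma adjusted p = 0.000805). It was 2.09-fold lower than at 2 h (log2 change -1.06, -1.40 to -0.72, adjusted p = 0.000666). At 2 h against 0 h the difference was 0.06 (-0.28 to 0.40, adjusted p = 0.764). A larger change at 6 h against 0 h was seen in 16.3% of genes of this fit. Without 6 h replicate 1, where the Nsun6 runs and the unconverted share of 1.26% were seen, the change was -0.87 (adjusted p = 0.00621), which rests on 3 cytosines of 1 library at 6 h, with the spread taken from the other groups.

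The fall of Nsun6 was present along its mRNA, with a mean below that of 0 h in 10 of 10 windows listed at 0 h and 6 h and below that of 2 h in 7 of 7, though 1 of the 10 and 2 of the 7 were listed in all 4 libraries. Exon 4, which holds the printed cytosine, had 183 and 145 reads before KCl, 196 and 176 after 2 h, and 90.4 and 95.9 after 6 h. Exon 4 was listed in every library, and there both 6 h libraries were below the other 4, but 6 h replicate 2 rested on 1 cytosine.

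**Figure D4:**
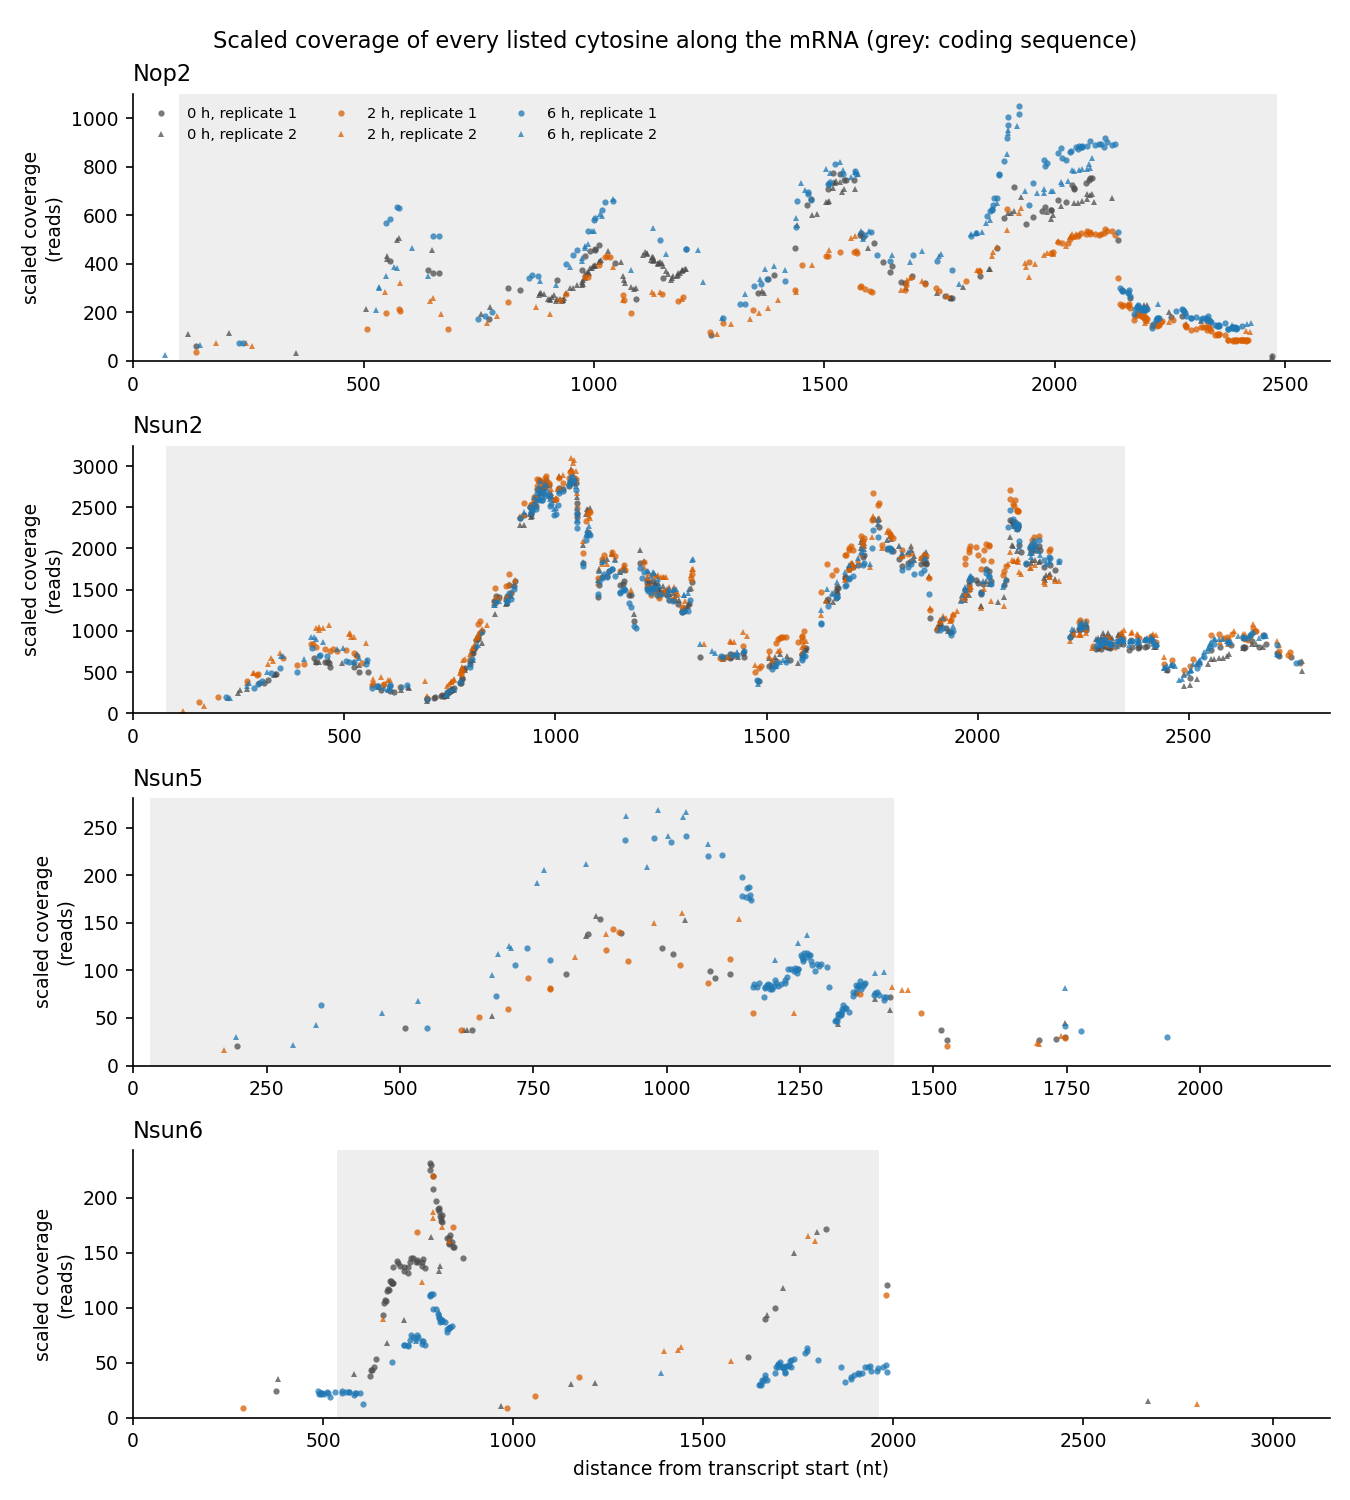
Scaled coverage (reads) of every listed cytosine along the mRNAs of the testable members (distance from transcript start, nt; grey, coding sequence), coloured by time point. By the mean of a group, Nop2 is lower at 2 h than at 0 h in 21 of 24 windows, and Nsun6 is lower at 6 h than at 0 h in 10 of 10.

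Trdmt1, the tRNA methyltransferase that is also called Dnmt2, was listed at 5 and 2 cytosines before KCl, 1 and 0 after 2 h, and 6 and 3 after 6 h. Their mean scaled coverage was 37.9 and 24.8 reads at 0 h, 12.6 in the 2 h library that listed one, and 43.7 and 22.1 at 6 h. The 0 h and 6 h libraries overlapped. It lies at chr2:13509014-13544668 on the - strand, and of its 4 windows with 2 or more libraries, 1 was listed at both 0 h and 6 h and none at 2 h and another time.

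Nsun3 and Nsun4, the mitochondrial members, were as sparse. Nsun3 (chr16:62732444-62786818, - strand) was listed at 4 and 3 cytosines before KCl, 2 and 2 after 2 h, and 2 and 0 after 6 h. Exon 5, where 7 of its 12 cytosines lie, had 101 reads in 0 h replicate 2, 85.3 and 68.9 at 2 h, and 29.9 in 6 h replicate 1. The 6 h library was the lowest, and Nsun3 was not tested, since no window was listed in all 6 libraries.

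Nsun4 (chr4:116032842-116053876, - strand) was listed at 11 and 5 cytosines before KCl, 7 and 3 after 2 h, and 2 and 5 after 6 h. Exon 2 had 111 and 77.5 reads at 0 h, 53.7 in 2 h replicate 1, and 71.7 and 66.4 at 6 h. Both 0 h libraries were above the others, and the windows shared by 0 h and 6 h were lower at 6 h in 3 of 4. Over all its listed cytosines the mean scaled coverage of Nsun4 was 74.8 and 69.4 reads before KCl, 37.8 and 24.0 after 2 h, and 55.6 and 60.6 after 6 h. The 2 h libraries were the lowest, but the libraries listed different cytosines and no test was made.

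In the order of coverage over shared windows, Nsun2 came first at all 3 times, followed by Nop2, with no overlap between libraries of these genes. In the additive fit Nsun6 lay above Nsun5 at 0 h (82.4 and 80.9 against 51.1 and 57.6 reads) and at 2 h (90.9 and 79.9 against 48.7 and 54.2). At 6 h the order of Nsun5 and Nsun6 was turned (84.5 and 103 against 37.2 and 44.7). The libraries of these genes did not overlap at any time. Each gene's value rests on its own windows, and no test was made between genes.

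The genes whose log2 coverage ran most like that of a member over the 6 libraries were, for Nop2, the splicing factor gene Sf3a1 (Pearson r = 1.00) and Luc7l (r = 0.999). For Nsun2 they were the small GTPase gene Rab18 (r = 0.982) and Herpud2 (r = 0.977). For Nsun5 they were Tars, which encodes threonyl-tRNA synthetase (r = 0.996), and the ubiquitin-conjugating enzyme gene Ube2g2 (r = 0.996). For Nsun6, in the additive fit, they were Mpv17l (r = 0.999) and the deubiquitinase gene Usp33 (r = 0.997). An r over 0.95 was reached by 337, 9, and 141 of 7889 genes for Nop2, Nsun2, and Nsun5, and by 772 of 10920 for Nsun6. The points are 6 libraries in 3 groups, and the values are given as a description.

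Other genes of RNA modification give the setting of these changes. Their counts are to be read against all genes, of which 18.7% were called higher and 22.2% lower at 2 h, and 33.4% higher and 34.2% lower at 6 h. Of 9 other m5C genes, 7 were tested, 3 were higher at 2 h and 5 at 6 h, and 0 were lower by limma, also at an unadjusted p and by edgeR and DESeq2. Their median log2 change was 0.26 and 0.58 (all genes, -0.01 and 0.01). Tet3, which oxidizes m5C, had 176 and 168 reads before KCl, 241 and 228 after 2 h, and 423 and 376 after 6 h, and rose by 0.45 and 1.22 on the log2 scale (limma adjusted p = 0.00987 and 7.58e-05). Srsf2, a splicing factor, rose by 0.73 at 2 h and 0.93 at 6 h. Nsun7, the remaining NSUN gene, was listed at 2 and 0, 1 and 0, and 0 and 23 cytosines in the 6 libraries and was not tested. Tet1 was not tested either. Its listed cytosines had a mean of 67.6 and 35.2 reads before KCl. The means were 38.1 and 32.9 after 2 h and 22.9 and 30.6 after 6 h, over cytosines that differ between libraries.

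Of 9 m6A enzymes tested (of 13), 5 were lower and 2 higher at 2 h, and 3 were lower and 4 higher at 6 h (median -0.51 and 0.23), where 40.9% and 67.6% of all genes were called. Mettl14, part of the m6A writer complex, took the course of Nop2, with 254 and 260 reads before KCl, 157 and 136 after 2 h, and 310 and 310 after 6 h. Mettl3, the catalytic subunit, had 252 and 286, 193 and 176, and 63.6 and 63.3 reads, and fell by 2.08 on the log2 scale at 6 h (limma adjusted p = 2.68e-05). Rbm15 rose by 2.60 at 2 h and 1.95 at 6 h.

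Among 13 tRNA methyltransferases tested (of 23), 5 were lower and 2 higher at 2 h, and 6 lower and 2 higher at 6 h (median -0.24 and -0.20; all genes called, 40.9% and 67.6%). Trmt1l fell by 2.15 on the log2 scale at 2 h and Trmt61b rose by 1.79. Of 5 rRNA methyltransferases (of 10), 2 were lower and 1 higher at 2 h, and 4 were higher and 1 lower at 6 h (median -0.12 and 0.25). Fbl, the methyltransferase fibrillarin, had 640 and 793 reads before KCl, 929 and 1138 after 2 h, and 1379 and 1387 after 6 h, and differed in direction from Nop2 at 2 h (0.53, limma adjusted p = 0.0185).

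Of 7 pseudouridine synthases (of 13), 3 were lower and 0 higher at 2 h by limma (0 also at an unadjusted p and by edgeR and DESeq2), and 4 were lower and 1 higher at 6 h (median -0.33 and -0.38). Of all genes, 18.7% were higher and 22.2% lower at 2 h, and 33.4% and 34.2% at 6 h. Rpusd4 fell by 1.60 at 2 h. At 6 h Trub1 fell by 2.20 (limma adjusted p = 0.000484) and Trub2 fell by 0.94 on the log2 scale, while Dkc1, the catalytic protein of nucleolar guide complexes, rose by 0.89. All 12 nucleolar ribosome assembly factors were tested, of which 5 were higher and 3 lower at 2 h, and 8 were higher and 3 lower at 6 h (median 0.05 and 0.34). Nolc1 had 1033 and 1002 reads before KCl, 1860 and 1883 after 2 h, and 1287 and 1234 after 6 h, with its highest values at the time of the lowest Nop2 values.

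**Figure D5:**
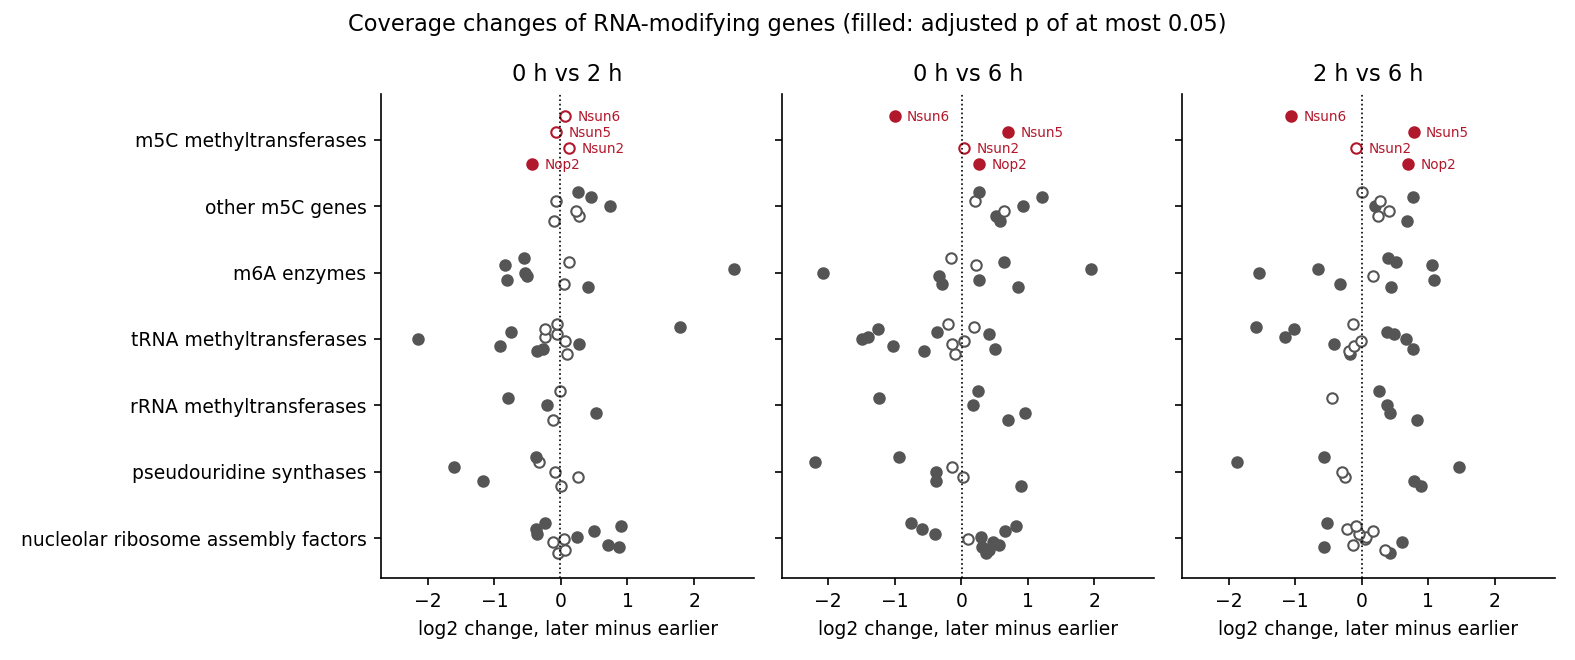
Log2 change of scaled coverage (later minus earlier time point) of the testable m5C methyltransferases (red) and other RNA-modifying genes (grey), with filled points for a limma adjusted p of at most 0.05. Nsun6 is drawn from the additive fit, where 6 h replicate 2 rests on 3 cytosines, and all other points from the fit over shared windows. At 6 h against 0 h Nsun6 fell by 1.00, Nsun5 lies at 0.71, Nop2 at 0.27 (near 0 with total-coverage scaling), and Nsun2 at 0.04.

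In these bulk cultures, fewer cells of a type and less RNA per cell cannot be told apart. Markers of cell types moved between the times as well. Their counts are to be read against all genes. Of these, 18.7% were called higher and 22.2% lower at 2 h, and 33.4% higher and 34.2% lower at 6 h. All 5 neuronal markers were tested, and their summed scaled coverage ranged from 20675 to 21553 reads before KCl, 14933 to 15968 after 2 h, and 15759 to 15818 after 6 h, with 1 marker lower and 1 higher at either time. The marker that was lower was Tubb3 at both times, and the other 4 summed to 8001 to 8271 reads, 7926 to 8985, and 9923 to 10045. That of 4 astrocyte markers was 5643 to 5832, 5653 to 5788, and 4282 to 4552 reads, and 3 of the 4 were lower at 6 h. Oligodendrocyte lineage markers (4 tested) had 2805 to 2940 reads before KCl, 2143 to 2242 after 2 h, and 3258 to 3290 after 6 h in sum, with 3 lower at 2 h and 3 higher and 1 lower at 6 h. Olig1, the most covered of them, was lowest at 2 h and highest at 6 h, as Nop2 was, while Pdgfra was lower at 6 h than at 0 h (log2 change -0.46) and Olig2 did not pass the test at 2 h. Cx3cr1, the 1 microglial marker tested, had 352 to 356 reads, 253 to 275, and 209 to 210, while Csf1r, P2ry12, and the endothelial Cldn5 had no listed position. Of 3 markers of dividing cells and progenitors, 0 were called by limma at 2 h (0 at an unadjusted p and by edgeR and DESeq2), and 1 was higher and 1 lower at 6 h. The part of these shifts in the changes of Nop2, Nsun5, and Nsun6 was not tested.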

How the data were processed

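Poly(A) RNA of 6 libraries (biological duplicates per time in KCl) was bisulfite converted and sequenced. Per the methods of the study, reads were trimmed with Trim Galore, aligned to GRCm38 (mm10) with meRanTK, and called with meRanCall. The authors deposited, per listed position, the coverage and the methylated reads as read counts with no normalization, and the level as a fraction of unconverted reads. The deposited p-values were all 0 and were not used. The submitters' notes name R 4.1.1.

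The counts were used as deposited, without positions annotated to several genes in the coverage values. The coverage of listed cytosines was averaged in 100 nt windows listed in all 6 libraries (at least 3 per gene), divided by median-of-ratios factors, and tested on the log2 scale with limma 3.58.1 (lmFit, eBayes with trend, R 4.3.3), with Benjamini-Hochberg adjustment over all genes at 0.05. The test expected for levels, Fisher's exact test, had no member position that met its minimums. Alternatives were other windows, positions, minimums, and scalings, edgeR 4.0.16, DESeq2 1.42.0, a replicate block, and leaving out each library; the additive fit was added after the data were seen. On simulated data for 0 h against 2 h (7890 genes), limma recovered 93 of 100 genes raised 1.5-fold and 100 of 100 raised 2-fold. It called 6 unchanged genes. The simulated counts were independent draws with a spread set by hand, and only these genes changed, all upward at 2 h. They did not model which cytosines are listed, so the recovery is not that of the real libraries. Genes, exons, and sequences were read from GENCODE M21 and GRCm38 (Python 3.11.15, pandas 2.3.3, scipy 1.17.1).

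The members and gene lists were chosen with earlier results of these data known. All members were named, and of each other list at most the 3 genes with the largest called change per comparison, the controls, Nsun7, and Tet1. For each member tested, the 2 genes with the highest Pearson r were named. The exact (Clopper-Pearson) intervals and the read minimums cover counting error only, since PCR copies were not separated.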

Additional observations from a re-analysis of the deposited data

How the results depend on the processing

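Of 216 alternative values of the coverage changes of Nop2, Nsun2, Nsun5, and Nsun6, 194 kept direction and call, 10 lost the call, 1 gained it, and 11 turned direction. With positions listed in all 6 libraries, genes called numbered 874 at 0 h against 2 h, 1953 at 0 h against 6 h, and 1672 at 2 h against 6 h, of 3078 tested (28.4%, 63.5%, and 54.3%), against 3227, 5330, and 5146 of 7890 as reported (40.9%, 67.6%, and 65.2%). With 3′ UTR positions they numbered 1095, 2043, and 1884 of 3357 (32.6%, 60.9%, and 56.1%), and with every listed position 701, 2901, and 2423 of 10804 (6.49%, 26.9%, and 22.4%). Leaving out each library gave 1945 to 3574, 4358 to 5877, and 4104 to 5482 genes; the lowest counts at 0 h against 2 h, 1945 and 1991, were without 0 h replicate 1 and without 0 h replicate 2.

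Nsun2 turned direction with positions listed in all 6 libraries (-0.074 at 2 h and -0.0995 at 6 h), with total-coverage scaling (-0.046 and -0.23), and at 6 h without 6 h replicate 2 (-0.0086, in a range up to 0.079 without 6 h replicate 1). Nsun5 at 2 h became 0.12 with every listed position, 0.02 without 0 h replicate 2, and 0.092 without 2 h replicate 1, in a range down to -0.25 without 2 h replicate 2. Nsun6 at 2 h became -0.0033 with every listed position and -0.041 without 2 h replicate 1. Nop2 at 6 h became -0.0017 with total-coverage scaling. None of these differences was called under the alternative; the cause was not tested.

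With every listed position, the calls of Nop2 at 2 h (-0.50, limma adjusted p = 0.191) and at 6 h (0.33, adjusted p = 0.273), of Nsun5 at 6 h against 0 h (0.77, 0.0824) and 2 h (0.65, 0.133), and of Nsun6 at 6 h against 0 h (-0.89, 0.0828) and 2 h (-0.89, 0.0901) were lost. Nop2 at 2 h was also lost with the median over windows (-0.39, adjusted p = 0.0813), and Nop2 at 6 h without 0 h replicate 1 (adjusted p = 0.0523), without 0 h replicate 2 (0.0694), or without 6 h replicate 1 (0.0986). Nsun2 gained a call at 2 h in the additive fit (0.23, adjusted p = 0.023). Nsun6 with at least 1 shared window was called lower at 6 h (-0.78, adjusted p = 0.00549) and not at 2 h (0.21, adjusted p = 0.335); in the additive fit without each library in turn its change at 6 h against 0 h ran from -1.14 to -0.87 and was called each time.

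Deviations of same-numbered libraries correlated at 0.351 between 0 h and 2 h, and at -0.122 and -0.117 between these and 6 h, so the numbers were not taken to pair the samples. With a replicate block, 3060, 5316, and 5129 genes were called, and no call of a member changed. Crossing the 6 h numbers, chosen after the data were seen, gave 3391, 5496, and 5338.

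Fisher's exact test, the Cochran-Mantel-Haenszel test, limma on levels, and the minimum of 20 reads in 4 libraries were not run at member positions, since none met the level minimum. Some settings left Nop2, Nsun5, or Nsun6 without enough windows and gave no value. The 6 h value of Nsun6 rests on 3 cytosines in replicate 2, and the main value of Nsun5 on 3 windows. A cytosine enters only when a read holds an unconverted C, so the set of positions differs between libraries. Nsun3, Nsun4, and Trdmt1 stay below what this depth can compare.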
